A study of Solanum lycopersicum with 40 samples.

Results

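Ripe fruit of the transgenic tomato line N7 was compared with ripe fruit of a vector control (VC), on 4 Affymetrix arrays of N7 and 4 of VC, chosen by their sample titles out of 40 arrays of the series. The plants were Solanum lycopersicum of the dwarf cultivar Micro-Tom, grown in pots for 9 weeks in a growth chamber at 26 C by day and 22 C by night. Fruit of the same age was harvested from both groups, and no further treatment was given. N7 expresses InsP 5-ptase, an inositol polyphosphate 5-phosphatase, and VC is the vector control of the same tissue. The promoter, the vector and the species of origin of that gene are unstated in the labels. N7 is 1 transgenic line, so the spread between independently transformed lines is in none of the p-values. The titles call the 4 replicates of each group biological. The comparison asks which transcripts differ in ripe fruit of a line that carries the enzyme.

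Inositol trisphosphate is a messenger that plant cells make from a membrane lipid and that leads to release of calcium from internal stores. Inositol polyphosphate 5-phosphatases remove a phosphate from it and so end the signal. Ripening of tomato fruit is driven by ethylene and brings sugar accumulation, cell wall softening, loss of chlorophyll and carotenoid synthesis, and genes of these processes and of stress responses are the groups described here.

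All arrays had the same trimmed mean signal of 500, and 54.7% to 61.3% of probe sets lay above a floor of 50 on the 8 arrays. Most markers followed the tissue label, with exceptions. PG2, the ripening polygalacturonase, averaged 3152 in N7 fruit and 7887 in VC fruit, against 2.55 in leaves and 1.602 in root tips of the series. The chlorophyll-binding protein gene CAB4 averaged 252 in fruit and 9361 in leaves, and LKT1, a root potassium channel gene, 15.1 in fruit and 301.0 in root tips. The fruit lipoxygenase LOX1.1 averaged 2449 in N7 fruit and 494.6 in VC fruit, against 574 in root tips. The root phosphate transporter gene PT1 averaged 1059.5 in fruit, between 583 in leaves and 4158 in root tips.

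Reporter probe sets, for sequences used to transform plants, separated the groups and set 1 array apart. Probe set A06498 had signals of 237, 336, 280.3 and 259.6 in N7 1 to 4, against 6.997, 2.28, 4.78 and 14.0 in VC 1 to 4. Every N7 array was above the floor for it and every VC array below. Probe set M62653 stood at 7.38, 9.11, 8.84 and 8.60 in N7 1 to 4, against 6.37, 9.17 and 10.1 in VC 1 to 3 and 5161 in VC 4. AF292560 gave the same split, with 5216 in VC 4 and at most 17.9 on the other arrays of N7 and VC. Of 63 reporter probe sets, 1 was above the floor on any N7 array, 4 on VC 4 and 0 on VC 1 to 3. Fruit labelled wild type had 1198 to 4416 for M62653. The array labelled VC 4 differs from the other arrays of its label, and the fitted differences are given with it and without it.

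The 3'/5' ratio, a measure of RNA quality, was higher in VC 1 to 3 than in N7. The mean log2 ratio of 3' to 5' probe sets of 4 control transcripts (actin, GAPDH, EF1A and ubiquitin) was 2.94, 2.88, 3.71 and 3.26 in N7 1 to 4, against 4.53, 4.23, 4.70 and 2.96 in VC 1 to 4. VC 4 lay within the range of N7, and VC 1 to 3 lay above it. The difference was -0.91 with all VC arrays (exact permutation p = 0.0857, two-sided, n = 4 each). Set against VC 1 to 3, it was -1.29 (exact permutation p = 0.0286, the smallest these groups allow). A higher ratio means that fewer labelled copies reach the 5' end of a transcript. Counts from a fit with this ratio as covariate, the 3'/5'-adjusted fit, stand beside the gene groups, and the part of the ratio in them was not tested. Ratio and group are confounded, since VC 4 alone of the VC arrays lay in the N7 range. With all arrays the group difference of that fit therefore leans on VC 4, and it is no clean correction for RNA quality. Against VC 1 to 3 the ratio and the group can hardly be told apart.

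**Figure D1:**
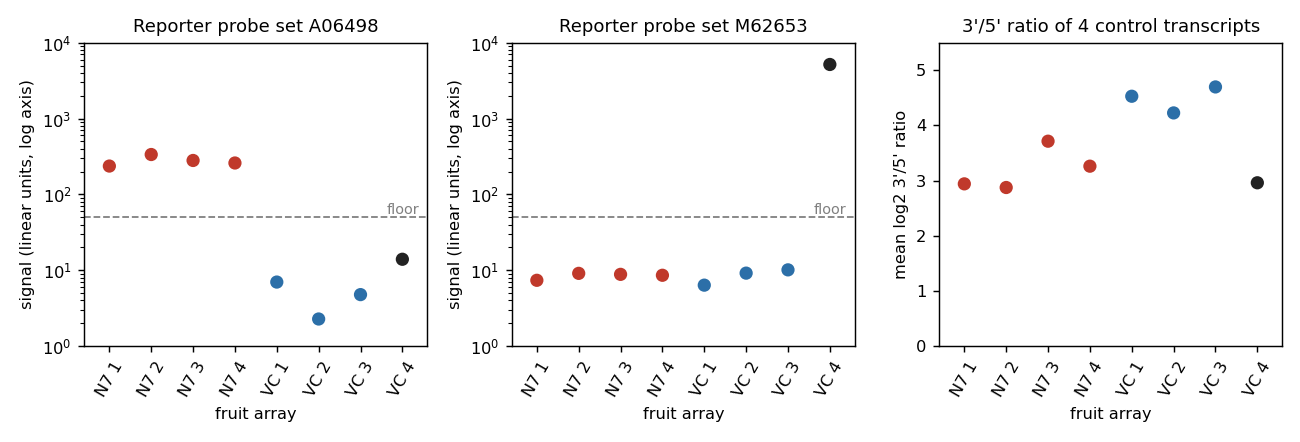
Signals of the reporter probe sets A06498 and M62653 (log axis, dashed line at the floor of 50) and the mean log2 3'/5' ratio of 4 control transcripts on each fruit array, with N7 in red, VC 1 to 3 in blue and VC 4 in black. A06498 is above the floor on the N7 arrays, M62653 on VC 4, and the ratio of VC 4 (2.96) lies among those of N7.

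On the log2 scale and over the 5863 probe sets tested, arrays of N7 correlated with each other at 0.958 to 0.989 and VC 1 to 3 with each other at 0.971 to 0.99. VC 4 correlated with VC 1 to 3 at 0.894 to 0.913 and with N7 at 0.916 to 0.923. Its highest correlation, 0.971, was with wild type fruit 3, which itself correlated with the other wild type fruit arrays at only 0.876 to 0.906. These are correlations across probe sets of arrays that share a tissue and a scaling. VC 4 was over 2-fold from the mean of VC 1 to 3 at 1148 tested probe sets, 788 of them higher. VC 1, 2 and 3 differed that much from the mean of the other two at 28, 194 and 61. At 2414 probe sets that differed between N7 and VC 1 to 3, VC 4 was nearer the N7 mean in 1578 (65.4%), and its median position was 0.755 on a scale where VC 1 to 3 is 0 and N7 is 1. These probe sets were chosen for a difference of VC 1 to 3 from N7, without VC 4. Some shift of VC 4 towards N7 follows from that choice, so this is a description.

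**Figure D2:**
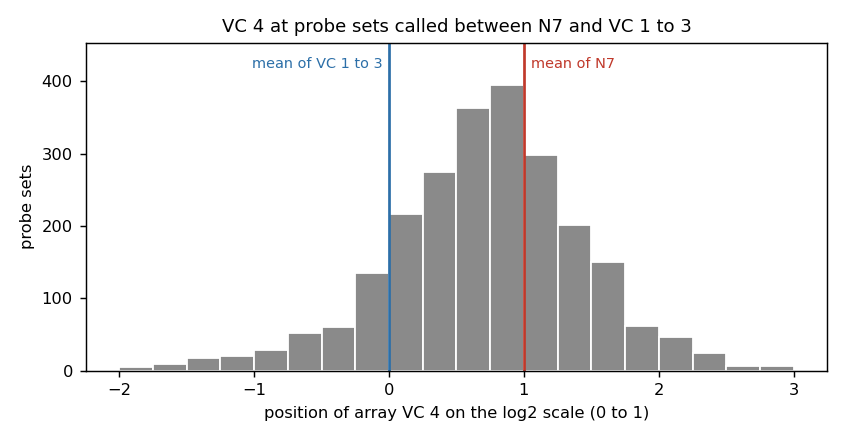
Number of probe sets (y axis) by the position of array VC 4 between the mean of VC 1 to 3 (0, blue line) and the mean of N7 (1, red line) on the log2 scale, over 2414 probe sets called between N7 and VC 1 to 3; 15 below the plotted range and 24 above it are not drawn. The median position is 0.755. The probe sets were chosen without VC 4, which by itself shifts VC 4 towards N7 to some extent.

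Of 5863 probe sets tested in N7 against all VC arrays, 1008 (17.2%) were called by limma at an adjusted p under 0.05, 581 higher in N7 (9.91%) and 427 lower (7.28%). The median log2 difference of all tested probe sets was 0.11. Differences over 2-fold were called at 485 of them, 233 higher and 252 lower. When VC 4 was left out, 2446 of 5952 were called (41.1%), 1517 higher (25.5%) and 929 lower (15.6%), around a median difference of 0.14. All 1008 probe sets called with VC 4 were called in the same direction without it, and 1438 more were called only without it. The fit with the 3'/5' ratio as covariate called 601 probe sets with all arrays, of which 421 were among the 1008 and 180 were called only there. It called 180 against VC 1 to 3, of which 176 were among the 2446. Among the calls against VC 1 to 3, 62.0% were higher in N7, and 42.7% with median scaling, which moved the median difference to -0.08. In the fit with the 3'/5' ratio the split turned, with 42 higher and 138 lower (23.3% higher) against VC 1 to 3, and 261 higher and 340 lower with all arrays.

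Groups did not overlap at 856 of the 1008 called probe sets (84.9%), against 21.4% of all those tested. Called probe sets were chosen for a group difference on the same arrays, so this is a description. Every N7 array was at the floor for 35 called probe sets and every VC array for 10. Such probe sets passed the filter only through the group in which they were high. A symbol was given to 139 of the called probe sets and none to 869, so most of the calls carry no gene name here. Of 445 genes with an informative symbol, 38 were higher in N7 and 68 lower (105 and 114 against VC 1 to 3). The 12 highest and 12 lowest of these are drawn by array in the plot of single genes.

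**Figure D3:**
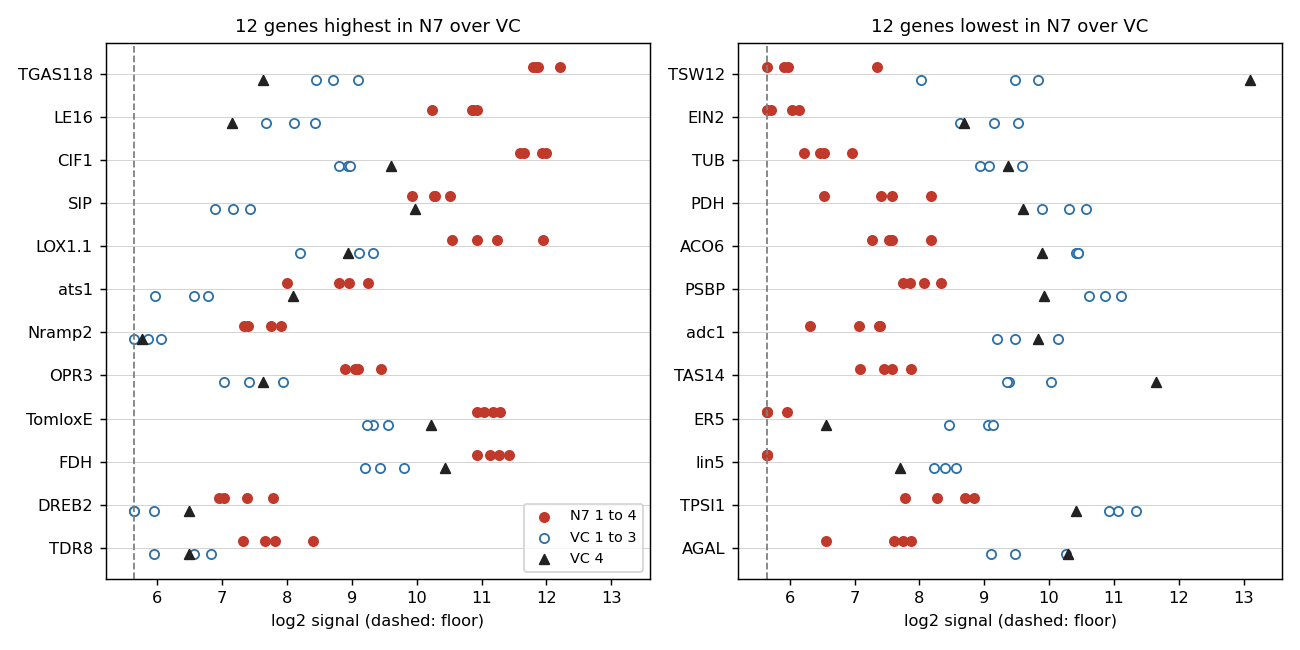
Log2 signal (x axis, dashed line at the floor) of the named genes with the largest rises (12) and falls (12) in N7; red points are N7 1 to 4, open blue points VC 1 to 3 and black triangles VC 4. N7 and VC separate for each gene but SIP and ats1, where VC 4 reaches the N7 arrays.

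Among genes of sugar import and cleavage, N7 fruit had more transcript of an inhibitor of invertase and less of a cell wall invertase. CIF1, the invertase inhibitor, had signals of 3093, 3220.3, 3902 and 4071 in N7 1 to 4, against 444, 489, 504 and 779.9 in VC 1 to 4. The groups did not overlap, and CIF1 rose 6.56-fold (log2 difference 2.71 ± 0.19 SE, adjusted p = 2.87e-05), or 7.42-fold against VC 1 to 3 (adjusted p = 3.51e-07). lin5, which cleaves sucrose outside the cell, had 14.3, 5.03, 15.9 and 5.59 in N7, against 298, 336, 380.2 and 208 in VC. All N7 arrays were under the floor and all VC arrays far above it, a difference of at least 5.96-fold, or at least 6.73-fold against VC 1 to 3. lin5 passed the filter only through VC and has no spread in N7 once floored, so its p is not given as support. GolS-1, galactinol synthase, which starts the raffinose sugars, had 162, 226, 158 and 214 in N7, against 1449, 932, 1092 and 509 in VC. It fell 4.96-fold (-2.31 ± 0.30, adjusted p = 0.000898, and -2.60 without VC 4, adjusted p = 8.49e-06), with VC 4 the lowest of the VC arrays but above every N7 array. AGAL, an alpha-galactosidase, which removes galactose from such sugars, fell 5.05-fold (-2.34 ± 0.36, adjusted p = 0.00194, and -2.17 without VC 4, adjusted p = 0.000792).

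Of 24 genes of this list on the array, 16 were tested, 1 rose and 5 fell, with a median log2 difference of -0.29 beside 0.11 for all probe sets, of which 9.91% rose and 7.28% fell. Against VC 1 to 3 those shares were 25.5% and 15.6%. AGAL, and SIP, which was higher in N7, are not counted in this list. Among the 5 are lin5 and GolS-1. The others that fell were the sucrose transporter SUT4 (-0.97 ± 0.28, adjusted p = 0.0381, and -1.10 without VC 4, adjusted p = 0.00796), the hexokinase hxk1 (-0.88 ± 0.27, adjusted p = 0.0497, and -0.67 without VC 4, adjusted p = 0.0323) and the sucrose synthase sus3 (-0.50 ± 0.13, adjusted p = 0.0226, and -0.56 without VC 4, adjusted p = 0.00372). AI, the vacuolar acid invertase, had a mean of 7228 in N7 and 7266 in VC (-0.01 ± 0.12, adjusted p = 0.954, and 0.05 without VC 4, adjusted p = 0.772). Without VC 4, 2 rose and 8 fell, now with the sucrose phosphate synthase SPS higher (0.36 ± 0.13, adjusted p = 0.0436) and the fructokinases FRK1 (-0.45 ± 0.15, adjusted p = 0.033) and FRK3 (-0.64 ± 0.11, adjusted p = 0.00109) lower. With the 3'/5' ratio in the model 1 rose, CIF1 at 2.47 (adjusted p = 0.00022), and 4 fell, namely lin5, GolS-1, hxk1 and the hexose transporter gene HT2 (-1.86, adjusted p = 0.0022). SUT4 (-0.93, adjusted p = 0.12) and sus3 (-0.41, adjusted p = 0.113) were not called there. Against VC 1 to 3 that fit called 1 higher and 2 lower.

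Single genes with the highest differences were of other kinds. TGAS118, a small cysteine-rich protein of the defensin type, had 3675, 3553, 4748 and 3723 in N7, against 349, 548, 419.9 and 197 in VC. The groups lay far apart, a rise of 11-fold (3.46 ± 0.27, adjusted p = 4.51e-05) and of 9.03-fold against VC 1 to 3. SIP had 1224, 1244, 972 and 1457 in N7, against 172, 144, 118 and 1007 in VC. Its rise of 5.2-fold (2.38 ± 0.56, adjusted p = 0.0165) became 8.48-fold against VC 1 to 3 (adjusted p = 1.53e-06); VC 4 lay within the N7 range. In the 3'/5'-adjusted fit SIP was not called, at 1.03 (adjusted p = 0.0946). For ats1 VC 4 lay within the N7 range too (1.903, and 2.32 against VC 1 to 3), and the 3'/5'-adjusted fit gave 1.054 (adjusted p = 0.114). FDH, formate dehydrogenase, had 2731, 2242, 1955 and 2473 in N7, against 893, 591, 691 and 1378 in VC, with VC 4 between N7 and VC 1 to 3 (1.47 ± 0.24, adjusted p = 0.00291, and 1.71 without VC 4, adjusted p = 2.45e-05).

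Among ethylene genes, the receptors ETR1 and ETR2 and the transcription factors EIL1 and EIL4 rose in N7 with all VC arrays, and EIN2 and the ACC oxidase ACO4 fell. EIN2 is a membrane protein that relays the ethylene signal from the receptors towards the nucleus. It had 46.6, 70.6, 65.3 and 52.7 in N7, against 566, 731, 395 and 412 in VC. N7 1 was under the floor and the groups did not overlap, so that EIN2 fell at least 8.63-fold (-3.11 ± 0.26, adjusted p = 6.08e-05), or at least 9.26-fold against VC 1 to 3. ACO4, an ACC oxidase, which makes ethylene, had 364, 554, 422 and 620.1 in N7, against 1469, 1339, 969 and 809 in VC (-1.22 ± 0.24, adjusted p = 0.008, and -1.37 without VC 4, adjusted p = 0.000629).

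The receptor ETR1 had 732, 777, 751 and 859.7 in N7, against 409, 376, 346 and 545 in VC (0.92 ± 0.19, adjusted p = 0.00898, and 1.049 without VC 4, adjusted p = 0.000275). The receptor ETR2 rose by a like amount (0.93 ± 0.19, adjusted p = 0.00974, and 1.12 without VC 4, adjusted p = 9.98e-05). EIL4 and EIL1, transcription factors that act at the end of the pathway, rose as well: EIL4 had 1961, 1821, 1887 and 1899 in N7, against 1020.2, 1191, 858 and 1094 in VC (0.87 ± 0.14, adjusted p = 0.00218, and 0.90 without VC 4, adjusted p = 0.000359), and EIL1 was at 0.55 ± 0.12 (adjusted p = 0.0105, and 0.59 without VC 4, adjusted p = 0.0017). In both, no VC array reached an N7 array. The receptor ETR4 did not pass (0.21 ± 0.14, adjusted p = 0.297, and 0.12 without VC 4, adjusted p = 0.444), nor did ACS2 (0.14 ± 0.49, adjusted p = 0.862, and -0.45 without VC 4, adjusted p = 0.131) and ACS4 (-0.63 ± 0.29, adjusted p = 0.156, and -0.85 without VC 4, adjusted p = 0.0196), ACC synthases of ripening fruit. Of 24 genes on the array 22 were tested, 4 rose and 2 fell, around a median of 0.19. Over all probe sets 9.91% rose and 7.28% fell, so the number that fell is near the background. Those shares were 25.5% and 15.6% against VC 1 to 3. Set against VC 1 to 3, 9 rose and 4 fell, among them the receptors ETR5 (0.71 ± 0.19, adjusted p = 0.0143) and ETR6 (0.71 ± 0.20, adjusted p = 0.0168), and the median was 0.27. With the 3'/5' ratio in the model, 1 rose (EIL4) and 2 fell (EIN2 and the ACC oxidase ACO5, which with all VC arrays and no covariate had an adjusted p of 0.938). ETR1 (0.67, adjusted p = 0.0553), ETR2 (0.63, adjusted p = 0.0743), EIL1 (0.46, adjusted p = 0.054) and ACO4 (-0.99, adjusted p = 0.0561) were not called there, and against VC 1 to 3 that fit called EIN2 alone. ACO6, listed with the synonym LeACO6 and not in the gene list, had 191, 289, 185 and 155 in N7, against 1396, 1363, 1389 and 952 in VC (-2.66 ± 0.23, adjusted p = 6.44e-05, and -2.79 without VC 4, adjusted p = 4.83e-06), and was at -2.51 (adjusted p = 0.000677) in the 3'/5'-adjusted fit.

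The 5 heat shock protein genes counted in the list were lower in N7 fruit. HSP17.4, a small heat shock protein of the cytosol, had 500.1, 482, 465 and 457 in N7, against 3189, 2598, 2485 and 1044 in VC. The N7 arrays lay close together, VC 4 was at less than any of VC 1 to 3, and the fall was 4.53-fold (-2.18 ± 0.29, adjusted p = 0.00099) or 5.76-fold against VC 1 to 3. MTSHP, of the mitochondria, had 637, 631, 384 and 762 in N7, against 2057, 1412, 2061 and 1634 in VC (-1.595 ± 0.22, adjusted p = 0.00114, and -1.63 without VC 4, adjusted p = 0.000314). HSP21, of the plastids (-1.75 ± 0.30, adjusted p = 0.00386, and -2.03 without VC 4, adjusted p = 9.43e-05), vis1 (-2.27 ± 0.38, adjusted p = 0.00355, and -2.59 without VC 4, adjusted p = 9.92e-05) and ER-SHSP, of the endoplasmic reticulum (-1.27 ± 0.27, adjusted p = 0.00998, and -1.43 without VC 4, adjusted p = 0.0014), fell too, with groups that did not overlap. All 5 genes counted in the list thus fell, around a median of -1.75, or -2.03 against VC 1 to 3. In the 3'/5'-adjusted fit 4 of them fell, with HSP17.4 at -1.57 (adjusted p = 0.00407) and ER-SHSP not called at -0.99 (adjusted p = 0.0797). Against VC 1 to 3 the adjusted fit called 1 of the 5. Over all probe sets 7.28% fell with all VC arrays and 15.6% against VC 1 to 3. Of the N7 arrays of vis1, 3 were under the floor.

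Further chaperone genes, looked up after these values were seen, had smaller differences. They are on the array but were not counted in the list, so its count and median leave them out. The list as written holds close spellings of HSP17-6, HSC80 and Hsp90-1, which these symbols did not match. CPN21, a chloroplast chaperonin, fell (log2 difference -0.43 ± 0.11, adjusted p = 0.0255, and -0.40 ± 0.11 without VC 4). HSP17-6, another small heat shock protein, was at -0.47 ± 0.16 (adjusted p = 0.0618) with all VC arrays and fell against VC 1 to 3 (-0.55 ± 0.15, adjusted p = 0.015). HSC80 was at -0.39 ± 0.14 (adjusted p = 0.0708, and -0.31 ± 0.13 without VC 4) and Hsp90-1 at -0.05 ± 0.12 (adjusted p = 0.815, and 0.01 ± 0.11 without VC 4), both of the HSP90 family. Their signals on the N7 arrays were at least 2296.

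Genes of the photosynthesis apparatus were lower in N7 fruit as well. PSBP, a subunit of the complex that splits water at photosystem II, had 270.2, 232, 215 and 323 in N7, against 2201, 1857, 1578 and 973 in VC, a fall of 6.16-fold (-2.62 ± 0.25, adjusted p = 0.000128) and of 7.24-fold against VC 1 to 3. PSBO, of the same complex, had 528, 465, 428 and 457 in N7, against 2499.8, 2316, 2396 and 871 in VC (-1.99 ± 0.30, adjusted p = 0.00193, and -2.36 without VC 4, adjusted p = 4.75e-07). VC 4 lay below VC 1 to 3 and above N7 for both. The plastocyanin PETE (-1.34 ± 0.30, adjusted p = 0.0138, and -1.71 without VC 4, adjusted p = 4.17e-06), PsbQ (-1.22 ± 0.34, adjusted p = 0.0327, and -0.90 without VC 4, adjusted p = 0.0126), the photosystem I subunit psaD (listed as LOC543978, -1.21 ± 0.23, adjusted p = 0.00591, and -1.24 without VC 4, adjusted p = 0.00151) and the chlorophyll-binding protein CAB4 (-1.16 ± 0.24, adjusted p = 0.0101, and -1.29 without VC 4, adjusted p = 0.00103) fell, and PSBR did not pass (-0.27 ± 0.16, adjusted p = 0.262, and -0.42 without VC 4, adjusted p = 0.018). Of 9 list genes on the array 7 were tested and 6 fell, around a median of -1.22. Beside this, 7.28% of all probe sets fell with all VC arrays and 15.6% against VC 1 to 3. All 7 fell against VC 1 to 3, and 4 of 7 in the 3'/5'-adjusted fit, where PETE (-0.65, adjusted p = 0.09) and CAB4 (-0.97, adjusted p = 0.0539) were not called. That fit called 3 against VC 1 to 3. In a bulk sample, fewer green cells and less of these transcripts per cell cannot be told apart. CAB4 is also the only tested member of the list of seed, leaf and vascular markers. The fruit means of PSBP in N7 and VC were 260.3 and 1652, and in leaves of the same genotypes 7726 and 7462.

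**Figure D4:**
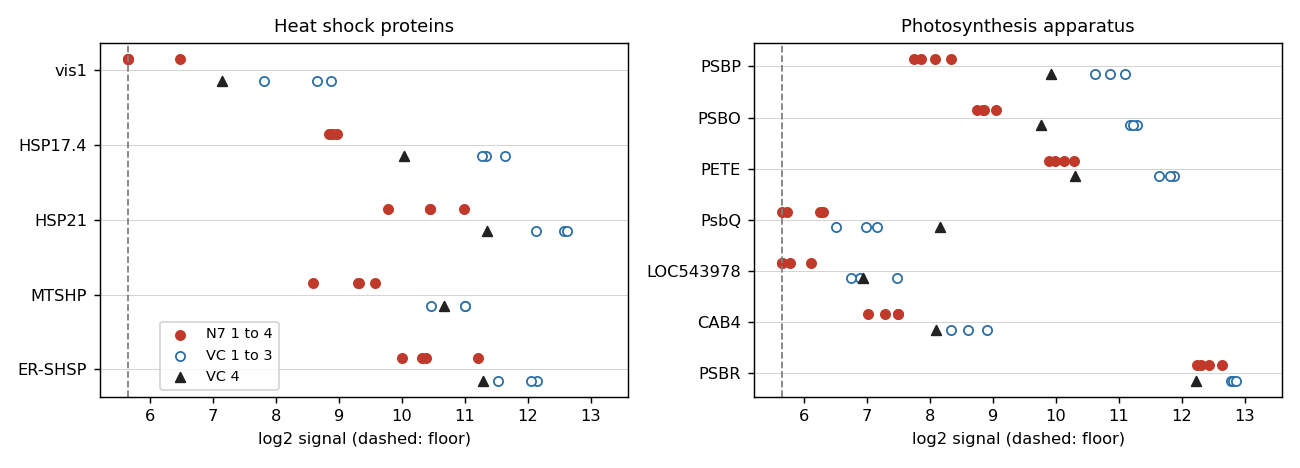
Log2 signal (x axis, dashed line at the floor) of the tested members of the heat shock and photosynthesis lists on each array, with N7 1 to 4 in red, VC 1 to 3 as open blue points and VC 4 as a black triangle. N7 lies left of VC for every gene but PSBR, where VC 4 is the lowest array; LOC543978 is psaD.

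Ripening regulators and ripe fruit markers mostly did not pass, with exceptions in both directions. LOX1.1, the fruit lipoxygenase also called TomloxA, had 1945, 2405, 1486 and 3961 in N7, against 553, 293, 641 and 491 in VC, a rise of 4.82-fold (2.27 ± 0.31, adjusted p = 0.00106) and 2.29 against VC 1 to 3. PG2, which breaks down pectin, had 3250.1, 2653, 1927 and 4778 in N7, against 8742, 6071, 10536 and 6197 in VC, a fall of 2.57-fold (-1.36 ± 0.27, adjusted p = 0.00781, and -1.46 without VC 4, adjusted p = 0.00191). No array of one group reached the other for either gene. In the 3'/5'-adjusted fit LOX1.1 was at 2.26 (adjusted p = 0.00734) and PG2 at -1.20 (adjusted p = 0.0516).

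The MADS-box genes TDR8 (1.34 ± 0.29, adjusted p = 0.0115, and 1.35 without VC 4, adjusted p = 0.00454) and TDR5 (listed as LOC543885, 0.58 ± 0.18, adjusted p = 0.0466, and 0.68 without VC 4, adjusted p = 0.0068) rose, and 2A11, an abundant fruit transcript, fell (-0.61 ± 0.14, adjusted p = 0.0165, and -0.64 without VC 4, adjusted p = 0.00759). RIN, a MADS-box regulator of ripening, had 2984, 2789.6, 3358 and 4658 in N7, against 2744, 2333, 3311 and 2311 in VC, and did not pass (0.35 ± 0.18, adjusted p = 0.195, and 0.29 without VC 4, adjusted p = 0.222). Psy1, phytoene synthase of the lycopene pathway (-0.27 ± 0.19, adjusted p = 0.338, and -0.25 without VC 4, adjusted p = 0.344), the expansin EXP1 (0.03 ± 0.17, adjusted p = 0.928, and -0.14 without VC 4, adjusted p = 0.33) and E8 (-0.35 ± 0.21, adjusted p = 0.265, and -0.58 without VC 4, adjusted p = 0.00631) did not pass with all VC arrays either. All 20 list genes were tested, 3 rose and 2 fell around a median of 0.22, and 5 rose and 5 fell against VC 1 to 3 around 0.04. Of all probe sets 9.91% rose and 7.28% fell with all VC arrays, and 25.5% and 15.6% against VC 1 to 3. The counts of this list are not far from those shares. With the 3'/5' ratio in the model LOX1.1 and TDR8 rose, and of the list PMEU1, a pectin methylesterase gene, fell (-2.62, adjusted p = 0.00477). PG2, 2A11 (-0.42, adjusted p = 0.112) and TDR5 (0.37, adjusted p = 0.282) were not called there. Against VC 1 to 3 that limma fit called 0 members, with 5 at an unadjusted p under 0.05.

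Genes of cell wall enzymes were mostly lower where they passed. LOC543916, a xyloglucan endotransglucosylase gene with the synonym XTH9, had 100, 90.2, 69.3 and 86.1 in N7, against 372, 327, 284 and 608 in VC, a fall of 4.44-fold (-2.15 ± 0.27, adjusted p = 0.000756, and -1.93 without VC 4, adjusted p = 6.01e-05). Xegip, a protein that inhibits a xyloglucan-degrading enzyme, had 150.2, 112, 158 and 96.2 in N7, against 484, 474, 444 and 389 in VC, a fall of 3.52-fold (-1.82 ± 0.23, adjusted p = 0.000793, and -1.88 without VC 4, adjusted p = 0.000108). N7 and VC lay apart for both, and both fell in the 3'/5'-adjusted fit (-2.67 and -1.65). TBG3, a beta-galactosidase, had 3962, 3698, 3839 and 4349.6 in N7, against 2726, 2507, 2755 and 1928 in VC and rose (0.69 ± 0.14, adjusted p = 0.00834, and 0.57 without VC 4, adjusted p = 0.00164). Among the xyloglucan enzymes, XTH3 (-1.87) fell as well. tXET-B2 had a fitted difference of -2.13 that is no measure of size, since all N7 arrays were under the floor and it passed the filter only through VC. VC 4 was near N7 for both. When VC 4 was left out, XTH3 was at -2.51 ± 0.18 (adjusted p = 3.7e-06) and tXET-B2 was at least 6.95-fold lower. In the 3'/5'-adjusted fit neither was called (tXET-B2 -0.91, adjusted p = 0.166, and XTH3 -0.62, adjusted p = 0.253). Of 47 list genes on the array 25 were tested, 1 rose and 7 fell around a median of -0.45. Of all probe sets 9.91% rose and 7.28% fell with all VC arrays, and 25.5% and 15.6% against VC 1 to 3. Without VC 4, 2 rose and 13 fell, and in the 3'/5'-adjusted fit 1 rose and 5 fell, of which LOC543916, Xegip and LOC543515 were among the 7. PMEU1 and XTH16 were called only there, and against VC 1 to 3 that fit called 4 lower.

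Genes of dehydration response and lipid transfer split. The lipid transfer protein gene LE16 had 1939, 1857, 1855 and 1204 in N7, against 275, 344, 205 and 142 in VC, a rise of 7.35-fold (2.88 ± 0.28, adjusted p = 0.000128), or 6.27-fold against VC 1 to 3. TSW12, another lipid transfer protein gene, had 60, 62.8, 35.2 and 163 in N7, against 906, 259.6, 714 and 8738 in VC. VC 4 was the highest array by far, and the fall of at least 14.8-fold (-3.89 ± 0.86, adjusted p = 0.013) was at least 7.41-fold without it (-2.89 ± 0.48, adjusted p = 0.000891). TAS14, a dehydrin, had 192, 235, 136 and 176 in N7, against 1042, 667, 657 and 3227 in VC (-2.60 ± 0.45, adjusted p = 0.00383), with VC 4 again the highest (-2.09 without it). ER5, related to the late embryogenesis abundant proteins, had 26.9, 62.4, 40.5 and 50.0 in N7, against 535, 565, 353 and 94.5 in VC (-2.58 ± 0.49, adjusted p = 0.00638). Here VC 4 was the VC array nearest N7, and without it the difference was -3.17. Of 11 list genes 9 were tested, 1 rose and 4 fell around a median of -0.26. PDH, which fell, was not counted in this list. The shares over all probe sets were 9.91% and 7.28% with all VC arrays, and 25.5% and 15.6% against VC 1 to 3. Set against VC 1 to 3, 3 rose and 4 fell, and in the 3'/5'-adjusted fit the same 5 genes were called (2 lower against VC 1 to 3).

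Of the genes of oxylipin and jasmonate synthesis, OPR3, the reductase that leads to jasmonate, had 528, 701, 547 and 477 in N7, against 171, 244, 130.4 and 197 in VC, a rise of 3.08-fold (1.62 ± 0.24, adjusted p = 0.0018, and 1.66 without VC 4, adjusted p = 0.000374). The lipoxygenase TomloxE had 2488, 2305, 1954 and 2099 in N7, against 752, 639.6, 603 and 1194 in VC (1.52 ± 0.21, adjusted p = 0.00106, and 1.73 without VC 4, adjusted p = 4.83e-06). Neither gene's groups overlapped. loxD, a lipoxygenase of jasmonate synthesis, fell (-1.45 ± 0.38, adjusted p = 0.0249), with VC 4 within the N7 range and -1.82 ± 0.26 against VC 1 to 3 (adjusted p = 0.000419). loxD was not called in the 3'/5'-adjusted fit, at -0.99 (adjusted p = 0.177). AOC, allene oxide cyclase, was at 0.03 ± 0.23 (adjusted p = 0.933, and -0.05 without VC 4, adjusted p = 0.855), and COI1, the jasmonate receptor, at 0.39 ± 0.25 (adjusted p = 0.306, and 0.48 without VC 4, adjusted p = 0.144). Of 18 list genes 10 were tested, and 3 rose and 1 fell, around a median of 0.14. LOX1.1, counted among the ripe fruit markers as well, is among the 3. Of all probe sets 9.91% rose and 7.28% fell with all VC arrays, and 25.5% and 15.6% against VC 1 to 3. When VC 4 was left out, 3 rose and 2 fell, and in the 3'/5'-adjusted fit the same 3 rose. Against VC 1 to 3 that fit called 1 lower.

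Among pathogenesis-related proteins TGAS118 rose, and the chitinases CHI3 and CHI9, enzymes that attack fungal walls, fell. CHI3 had 558, 313, 329 and 189.9 in N7, against 1033, 845, 847 and 690.0 in VC (-1.39 ± 0.29, adjusted p = 0.0107, and -1.49 without VC 4, adjusted p = 0.00274). CHI9 had 315, 194, 146 and 141 in N7, against 525, 477, 306 and 1006 in VC (-1.48 ± 0.37, adjusted p = 0.0226, and -1.17 without VC 4, adjusted p = 0.0119). N7 1 lay above VC 3 for CHI9, so its groups overlapped. Of 18 list genes 12 were tested, 1 rose and 2 fell around -0.33. The count was 4 and 7 against VC 1 to 3, around -0.64. Over all probe sets 9.91% rose and 7.28% fell with all VC arrays, and 25.5% and 15.6% against VC 1 to 3. With the 3'/5' ratio in the model CHI3 was not called (-1.29, adjusted p = 0.0562), and TGAS118 rose while CHI9 and LOC543878 fell.

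In the list on mineral nutrition, Nramp2, a metal transporter, had 216, 239, 168 and 161 in N7, against 57.6, 45.8, 66.2 and 54.0 in VC, a rise of at least 3.41-fold (1.77 ± 0.22, adjusted p = 0.000614, and 1.75 without VC 4, adjusted p = 0.000139). TPSI1, a transcript induced by phosphate starvation, had 415, 308, 457 and 220.1 in N7, against 2139, 2592, 1949.5 and 1364 in VC, a fall of 5.82-fold (-2.54 ± 0.26, adjusted p = 0.000198, and -2.72 without VC 4, adjusted p = 1.24e-05). The RNase gene rnalx (1.19 ± 0.19, adjusted p = 0.00242, and 1.21 without VC 4, adjusted p = 0.000536) and ST3 (0.70 ± 0.12, adjusted p = 0.00455, and 0.72 without VC 4, adjusted p = 0.000713) rose, while gad2 fell (-1.78 ± 0.38, adjusted p = 0.0111, and -1.61 without VC 4, adjusted p = 0.00739) with N7 2 reaching VC 2. For rnalx the VC signals of 54.4, 40.8, 62.6 and 58.0 lay near the floor, so its rise was at least 2.28-fold. With a floor of 100, limma did not call rnalx (0.35, adjusted p = 0.104). The gene table gives gad2 the synonyms 16DOX and GAME11, so its place in this list rests on its symbol alone. PT1, a phosphate transporter, did not pass (-0.14 ± 0.22, adjusted p = 0.696, and -0.13 without VC 4, adjusted p = 0.662). Of 20 list genes 9 were tested, 3 rose and 2 fell around a median of -0.14. The gene ats1, which rose, was not counted in this list. The shares over all probe sets were 9.91% and 7.28% with all VC arrays, and 25.5% and 15.6% against VC 1 to 3. Without VC 4, the count was 3 and 3. In the 3'/5'-adjusted fit the same 3 rose, and gad2, TPSI1 and RNALE fell. Against VC 1 to 3 that limma fit called 0 members, with 5 at an unadjusted p under 0.05.

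Inositol and calcium genes, nearest to the enzyme that N7 expresses, mostly did not pass. IMP1, an inositol monophosphatase that frees inositol, had 234, 283, 219 and 210.3 in N7, against 156, 139, 93.2 and 138 in VC and rose (0.86 ± 0.24, adjusted p = 0.0323, and 0.89 without VC 4, adjusted p = 0.0119), with groups apart. It was not called in the 3'/5'-adjusted fit, at 0.70 (adjusted p = 0.136). IMP3, of the same family, was at -0.03 ± 0.29 (adjusted p = 0.954, and -0.35 without VC 4, adjusted p = 0.116), and the calcium-dependent protein kinases cpk1 and CDPK1 at 0.40 ± 0.21 (adjusted p = 0.194, and 0.48 without VC 4, adjusted p = 0.0692) and -0.24 ± 0.27 (adjusted p = 0.555, and -0.02 without VC 4, adjusted p = 0.955). PLDa1, a phospholipase D, rose against VC 1 to 3 (0.60 ± 0.15, adjusted p = 0.00765) and did not pass with VC 4 (0.47, adjusted p = 0.0959). Of 9 list genes 6 were tested and 1 rose with all VC arrays and 2 against VC 1 to 3, beside 9.91% and 25.5% of all probe sets. The 3'/5'-adjusted limma fit called 0 with all VC arrays, with 2 at an unadjusted p under 0.05.

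In the carotenoid and isoprenoid list 2 of 15 tested genes passed and both fell, FPPS1, farnesyl diphosphate synthase (-0.94 ± 0.23, adjusted p = 0.0188, and -1.19 without VC 4, adjusted p = 4.4e-05), and NSY, also listed as Cyc-B, a carotenoid pathway gene (-1.33 ± 0.34, adjusted p = 0.0226, and -1.69 without VC 4, adjusted p = 0.000107). VC 4 lay near N7 for both, and neither was called in the 3'/5'-adjusted fit (FPPS1 -0.48, adjusted p = 0.149, and NSY -0.63, adjusted p = 0.162). Set against VC 1 to 3, 3 rose and 6 fell, among them DXR of the plastid isoprenoid pathway (-1.02 ± 0.17, adjusted p = 0.00113). Over all probe sets 9.91% rose and 7.28% fell with all VC arrays, and 25.5% and 15.6% without VC 4. The same shares stand beside the counts that follow. Of 13 antioxidant genes 1 rose, GPXle-2, a glutathione peroxidase (0.59 ± 0.17, adjusted p = 0.0396, and 0.76 without VC 4, adjusted p = 0.000765), as the one gene that passed. It was not called in 12 of 20 alternative settings, among them the 3'/5'-adjusted fit (0.33, adjusted p = 0.287), where DHAR1 rose and CAT2 fell. When VC 4 was left out, 2 rose and 3 fell. Of 11 ERF and DREB transcription factors DREB2 rose (1.35 ± 0.27, adjusted p = 0.00853, and 1.54 without VC 4, adjusted p = 0.000563) as the one gene that passed. Its rise is a lower bound, since VC 1 (41.4) and VC 3 (46.2) were under the floor. With the 3'/5' ratio in the model DREB2 was not called (0.97, adjusted p = 0.0559) and PTI6 fell. Without VC 4, 3 of 12 rose and 2 fell. The translation factor eIF4E1, which binds the mRNA cap, had 1252, 1225, 1049 and 1182 in N7, against 507, 361, 418 and 850.3 in VC (1.22 ± 0.24, adjusted p = 0.00853, and 1.47 without VC 4, adjusted p = 3.95e-05), and the ribosomal protein gene RPL8 fell slightly (-0.43 ± 0.11, adjusted p = 0.0245, and -0.46 without VC 4, adjusted p = 0.00847). Those were 2 of 3 genes tested in that list, and neither was called in the 3'/5'-adjusted fit (eIF4E1 0.74, adjusted p = 0.0562, and RPL8 -0.32, adjusted p = 0.127). Of 8 auxin response genes on the array 2 were tested. IAA3 was at -0.79 ± 0.34 (adjusted p = 0.13, and -0.90 without VC 4, adjusted p = 0.054) and ARF3 at 0.61 ± 0.20 (adjusted p = 0.0572), and ARF3 rose against VC 1 to 3 (0.45 ± 0.15, adjusted p = 0.0347) and in the 3'/5'-adjusted fit (0.89, adjusted p = 0.0285).

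**Figure D5:**
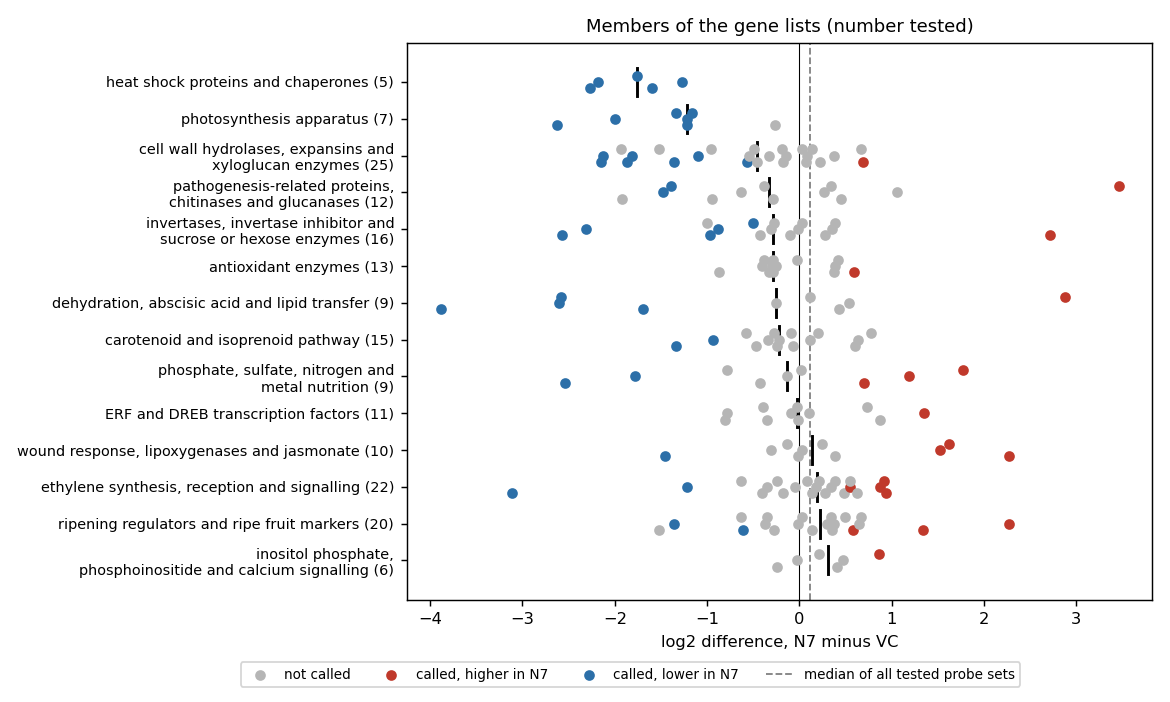
Log2 difference of N7 minus VC (x axis) for each tested member of the gene lists with at least 5 tested members, with the number tested in parentheses; red and blue points are members called higher and lower in N7, grey points were not called, black bars are list medians and the dashed line is the median of all tested probe sets (0.11). The lists of heat shock proteins (-1.75, without the chaperone genes looked up later) and photosynthesis (-1.22) have the lowest medians of the lists drawn.

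The other genes among the 12 lowest are named without a role. TUB had 88.9, 125, 92.9 and 74.6 in N7, against 489, 768, 539 and 658 in VC (-2.69 ± 0.25, adjusted p = 9.31e-05, and -2.65 without VC 4, adjusted p = 1.95e-05). PDH (-2.67 ± 0.34, adjusted p = 0.000753, and -2.84 without VC 4, adjusted p = 9.78e-05) and adc1 (-2.62 ± 0.30, adjusted p = 0.000437, and -2.56 without VC 4, adjusted p = 0.000109) fell likewise, each with groups that did not overlap. Both other tested probe sets of adc1 fell too, by 2.55 and 2.42 on the log2 scale.

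Some genes depended on VC 4, and the following were chosen after their values were seen. CBF1, a transcription factor of the cold response, had 24.7, 23.9, 21.8 and 21.47 in N7, against 736, 1072, 604 and 5.86 in VC. It was far above the floor in VC 1 to 3 and under it in N7 and VC 4, so it was not tested with all arrays. It was at least 15.6-fold lower in N7 than in VC 1 to 3, but it passed the filter there only through those arrays and was chosen for its values, so no p is given. Cel1, an endoglucanase, had 411, 517, 341 and 911 in N7, against 1956, 2642, 1709 and 107 in VC, with VC 4 below N7 and VC 1 to 3 above it (log2 difference -0.96, and -2.03 without VC 4). GluB, a glucanase, had 1182, 844, 413 and 669 in N7, against 368, 177, 60.5 and 3728 in VC, with VC 4 above N7 and VC 1 to 3 below it (log2 difference 1.058, and 2.199 without VC 4). In the 3'/5'-adjusted fit with all arrays, Cel1 was at 0.84 and GluB at -1.38. Both took the sign of N7 against VC 4, and neither was called there.

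Of the 48 genes named by rule, 43 had groups that did not overlap with all VC arrays and 46 against VC 1 to 3, beside 21.4% and 44.4% of all probe sets tested. They were chosen as called genes, so this is a description. VC 4 lay nearer N7 than VC 1 to 3 in 12 of the 48 and on the far side of VC 1 to 3 in 12. With wild type fruit as the control in place of VC, and with no VC array in the fit, 44 of the 48 were called in the same direction, among them EIN2 (-3.47, adjusted p = 3.15e-05), CIF1 (3.08, adjusted p = 3.15e-05) and PSBP (-2.41, adjusted p = 0.000146). These tests use the same N7 arrays, and fruit labelled wild type carried the M62653 reporter signal given above, with 1 of its arrays standing apart as described.

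In the seedling tissues of the same line, which have 3 arrays a group and were not tested here, EIN2 and CIF1 stood apart in leaves in the direction seen in fruit. EIN2 averaged 91.2 ± 16.9 in N7 leaves and 686 ± 125 in VC leaves (SD, n = 3 each), and 81.6 ± 29.3 in N7 root tips and 785 ± 21.0 in VC root tips. CIF1 averaged 1779 ± 493 in N7 leaves and 244 ± 20.4 in VC leaves, and 721 ± 33.7 and 398 ± 335 in root tips of N7 and VC. PSBP and PSBO, which were lower in N7 fruit, differed in leaves by less than 1 SD, with PSBO at 11640.4 ± 2017 in N7 and 11578 ± 692 in VC. lin5 and GolS-1 averaged under the floor in leaves of both genotypes.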

How the data were processed

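Labelled RNA from ripe fruit was hybridised to Affymetrix tomato arrays. The authors deposited 1 intensity per probe set and array, made with GCOS per the submitters' processing notes. For GCOS, the version and settings were not given in the sources used here. Each array had a trimmed mean of 500 (2% cut at each end). Control and reporter probe sets were left out, intensities under 50 were set to 50, and log2 was taken. Probe sets above the floor on at least 4 arrays (3 without VC 4) entered a limma fit (version 3.58.1, R 4.3.3), adjusted by Benjamini-Hochberg across every tested probe set, and called at an adjusted p under 0.05. The script was tested on simulated data. The number of arrays limits the precision. A fold is a lower bound where a group lay at the floor. The platform table gave 1 symbol to 909 probe sets and none to 9129, and 885 matched the gene table of assembly SLM_r2.1. The brightest probe set stood for a gene. Named genes were the 12 highest, the 12 lowest and up to 4 called members per list; other genes that the text names were chosen after their values were seen. The members, the gene lists and the rule were chosen with earlier results of these data known, and 6 list members were excluded. SIP, ats1 and PDH, all called, were written into a list but not counted in it. Other floors, filters, scalings, covariates and left-out arrays were tried as alternatives.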

Additional observations from a re-analysis of the deposited data

Results flagged for a closer look

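In 6 of 98 groups of 4 arrays, 1 array stood apart from the other three by Dixon's test on the log2 scale, and chance alone gives about 1 in 20. In N7 these were N7 3 for TGAS118 (12.21), N7 4 for LE16 (10.23) and N7 2 for ER5 (5.96). In VC they were VC 4 for ACO6 (9.90) and PSBO (9.77), and VC 2 for gad2 (10.54). The flag of ER5 rests on the floor, since its signals were 26.9, 62.4, 40.5 and 50.0 in N7 1 to 4. N7 1 and N7 3 were set to the floor and N7 4 lay at it.

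For 8 named genes every N7 leaf array lay on the opposite side of the VC leaf arrays to that seen in fruit, and the difference between the tissues was not tested. N7 minus VC in leaves was positive on the log2 scale for LOC543916 (synonym XTH9, 1.98), MTSHP (1.16), adc1 (1.04), ACO4 (0.72) and ACO6 (0.65), which fell in N7 fruit. It was negative for GPXle-2 (-1.79), FDH (-1.09) and eIF4E1 (-0.34), which rose in N7 fruit.

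Reporter probe sets, used in no comparison, gave signal in N7 for A06498 (mean of 278.0). On VC 4, and not on VC 1 to 3, they gave signal for M62653 (5161, and 333.7 for its second probe set), AF292560 (5216) and U57609 (97.95).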

How the results depend on the processing

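The 1008 calls with all VC arrays became 515 with no filter, 601 in the 3'/5'-adjusted fit (261 higher, 340 lower) and 3778 with array weights. Leaving out 1 array gave 465 (without N7 2) to 2446 (without VC 4), with 470 without VC 1, 521 without VC 3, 471 without N7 1 and 576 without N7 4. The 2446 calls against VC 1 to 3 became 180 in the 3'/5'-adjusted fit and 3740 with array weights, in alternatives chosen after seeing the data. The cause of these changes was not tested. The 3'/5' difference was -1.29 without VC 4. Deviations of same-numbered arrays of N7 and VC from their group means correlated at -0.16, -0.07, 0.05 and 0.18. Pairs of unlike number ranged from -0.51 to 0.44. With such a spread these values cannot decide whether the numbers pair the arrays. Of the 601, 421 were among the 1008. A replicate block gave 934 calls, and 1997 against VC 1 to 3. Of the 48 named genes, 16 lost their call in the 3'/5'-adjusted fit, 15 with no filter, 6 with median scaling, 4 with wild type fruit as the control, and up to 10 with 1 array left out. The least stable calls were GPXle-2, lost in 12 of 20 alternatives, RPL8 in 11, NSY in 10, and IMP1 and loxD in 9 each. The direction of none of the 48 turned in these alternatives to the fit with all VC arrays. In the 3'/5'-adjusted limma fit against VC 1 to 3, 2A11 turned, at 0.15 (adjusted p = 0.772).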
